A study of Mus musculus with 9 samples.

Results

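The 39 genes described here encode collagens and other proteins of the dermal and basement membrane matrix, 17 of them collagen chains. They were listed by symbol (COL1A1, COL1A2, COL3A1, FN1, DCN, LAMA3 and so on) and matched to the platform annotation ignoring case. The matching used no values, but the genes were chosen with earlier results of these data known. Mouse symbols are written from here on. All 39 had a probe, 46 probes in all, among 17742 named genes and 26423 probes of the series. RNA from the back skin of female BALB/c mice was labelled with Cy5 and measured on 9 one-colour arrays, in 3 groups of 3. The Mock group received Vaseline cream daily for 7 days on shaved back skin. The IMQ group received imiquimod instead, an agonist of a toll-like receptor that is applied to mouse skin to induce psoriasis-like inflammation. The Vanillin group received imiquimod together with vanillin by mouth at 100 mg/kg, although its source label writes and/or between the agents. There was no group that received vanillin without imiquimod, so each comparison with the Vanillin group is one within or against imiquimod-treated skin. Whether the 3 arrays of a group hold RNA of 3 mice is not in the labels, and the p-values therefore measure array-to-array spread that could be technical.

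Collagens are built as trimers of chains that wind into a triple helix, and types I, III and V form the fibrils that give the dermis its tensile strength. Type IV collagen and laminins form the basement membrane sheet below the epidermis and around vessels, and type VII collagen anchors that sheet to the dermal fibrils. Small leucine-rich proteoglycans such as decorin and lumican bind collagen and regulate fibril width. Elastin, fibrillins and fibulins make up the elastic fibres, and fibronectin, tenascins and thrombospondins link cells to the matrix. Most of these genes are expressed by dermal fibroblasts, whereas Col17a1, Lama3 and Lamb3 are products of basal keratinocytes and Col7a1 of both cell types.

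Skin is the labelled tissue, but the RNA extraction is described for muscle. The 6 suprabasal keratinocyte markers had mean intensities at or above percentile 88.3 of all probes and the 8 measured skeletal muscle markers at or above percentile 73.0. Median intensities of the arrays lay between 629 and 631, so a change of total signal cannot be seen. The median SD of the 39 genes on the log2 scale was 0.173 (Mock), 0.0554 (IMQ) and 0.0996 (Vanillin), beside 0.158, 0.0792 and 0.170 over all probes. Changes are given as differences of log2 intensity with their standard error, and a gene was called when the Benjamini-Hochberg adjusted p of limma over all probes was under 0.05. A probe's level depends on the probe, so levels of different genes are not compared.

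Most of the matrix genes were lower after imiquimod, and a small number stood far above mock. Of the 39 genes, 22 fell, 4 rose and 13 were not called in IMQ against Mock, so 66.7% were called beside 53.6% of all probes. The share called lower was 56.4%, against 29.6% of all probes, and the share called higher was 10.3%, against 24.0%. The 39 genes are counted once each and the shares of all probes count every probe. Counted once per gene on its brightest probe, 55.9% of the 17742 named genes were called, 31.6% lower and 24.3% higher. The median change was -0.46 log2 units, with single genes between -1.55 (Lama3) and 2.24 (Col1a1), while the median of all probes was -0.04. Changes of at least 2-fold were called for 8 genes that fell and 2 that rose, Col1a1 and Col7a1. Such changes were called for 6.44% and 7.05% of all probes. All 3 IMQ arrays lay below all 3 Mock arrays for 24 genes and above them for 4, beside 36.1% and 31.9% of all probes, and the groups overlapped for 11 genes, with 68.0% of all probes not overlapping. No set test was run, so the counts describe these 39 genes and are not a test of them as a group.

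With vanillin added, 15 of the 39 genes were higher than in IMQ, 5 were lower and 19 were not called, 51.3% called beside 41.2% of all probes. The share called higher was 38.5%, against 24.3% of all probes, and the share called lower 12.8%, against 17.0%. Of all named genes, counted once each, 42.8% were called, 26.2% higher and 16.6% lower. The median change was 0.20, beside 0.03 over all probes, and all changes lay between -0.68 (Col7a1) and 1.08 (Lama3). Lama3 alone among the 39 passed 2-fold, while 1.38% of all probes did so upward and 3.40% downward. The Vanillin arrays were all above the IMQ arrays for 21 genes and all below for 10, beside 32.8% and 25.7% of all probes (58.5% in either direction). The count of lower calls was 3 in place of 5 when any one of the IMQ or Vanillin arrays was left out. The Vanillin group also differed from Mock, with 22 genes lower, 6 higher and 11 not called, 71.8% called beside 26.7% of all probes. The share called lower was 56.4%, against 14.7% of all probes, and the median change -0.43, against 0.01. Of all named genes 29.3% were called and 15.9% were called lower. All Vanillin arrays were below all Mock arrays for 24 genes and above for 6, beside 20.3% and 17.5% of all probes (37.8% in either direction). Changes of at least 2-fold were Col1a1 and Col7a1 upward and Fn1 downward, beside 2.19% and 2.29% of all probes. The 3 comparisons share arrays in pairs, so they are given side by side and their agreement is not counted. The plot of changes by gene shows the calls of all 3 comparisons.

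**Figure D1:**
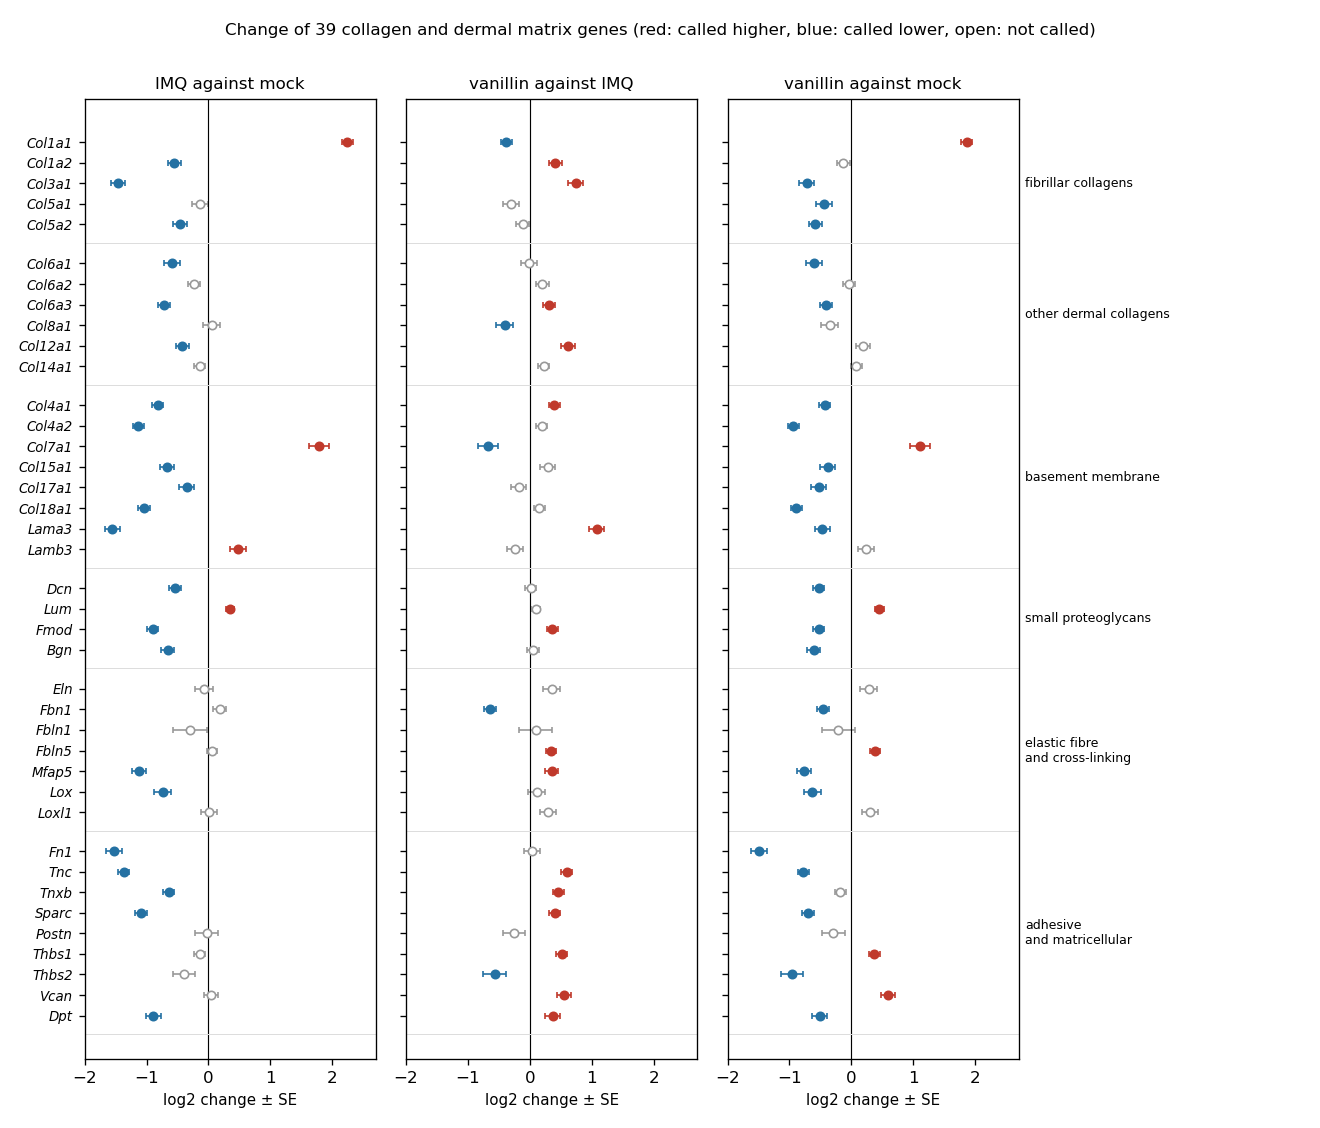
Log2 change with its standard error (horizontal axis) for each of the 39 genes (rows, grouped by role) in IMQ against Mock, Vanillin against IMQ and Vanillin against Mock. Filled red points were called higher, filled blue points lower and open grey points were not called; in IMQ against Mock 22 points are blue and 4 red, and Col1a1 at 2.24 and Col7a1 at 1.79 lie farthest to the right.

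Among the fibrillar collagens, Col1a1 and its partner chain Col1a2 moved in opposite directions. Col1a1 encodes the chain used most in type I collagen and Col1a2 the other chain. Col1a1 read 8.26, 8.32 and 8.46 on the Mock arrays, 10.57, 10.66 and 10.52 on the IMQ arrays and 10.10, 10.27 and 10.23 on the Vanillin arrays. The 3 groups did not overlap, with Mock lowest and IMQ highest. Col1a1 was thus 4.72-fold higher in IMQ than in Mock, a change of 2.24 ± 0.09 (SE, adjusted p = 1.07e-06), and was 0.38 ± 0.09 lower in Vanillin than in IMQ (adjusted p = 0.0119). It stayed 3.62-fold above Mock in the Vanillin group (adjusted p = 3.15e-06). In Mock this probe lay below the median log2 intensity of 9.30 over all probes, and it was the only probe of the gene.

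Col1a2 read 14.69, 14.48 and 14.42 in Mock, 13.95, 13.99 and 14.02 in IMQ and 14.37, 14.51 and 14.32 in Vanillin. The IMQ arrays were all below the other groups, and Mock and Vanillin overlapped. Col1a2 fell by 0.55 ± 0.10 on the log2 scale with imiquimod (adjusted p = 0.00168) and was 0.41 ± 0.10 higher with vanillin than with imiquimod alone (adjusted p = 0.0113), while Vanillin against Mock gave -0.13 (adjusted p = 0.367). The difference of log2 intensity between Col1a1 and Col1a2 within each array, set to a mean of 0 in Mock, was -0.25, 0.02 and 0.23 in Mock. It was 2.81, 2.85 and 2.69 in IMQ and 1.92, 1.95 and 2.10 in Vanillin, so the 2 probes of this heterotrimer changed unequally within every treated array. The corresponding difference between Col5a1 and Col5a2, the chains of the type V collagen that starts fibril assembly, changed by 0.31 in IMQ and by 0.14 in Vanillin against Mock.

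Col3a1, the single chain of type III collagen, which is abundant in skin and early wound matrix, fell most among the fibrillar collagens. It read 12.42, 12.16 and 12.07 in Mock, 10.74, 10.86 and 10.66 in IMQ and 11.59, 11.57 and 11.32 in Vanillin, with no overlap between any groups. The change was -1.46 ± 0.12 in IMQ against Mock (2.76-fold lower, adjusted p = 3.15e-05), 0.74 ± 0.12 in Vanillin against IMQ (adjusted p = 0.00295) and -0.72 in Vanillin against Mock (adjusted p = 0.00267). Col5a2 fell by 0.46 ± 0.11 (adjusted p = 0.00627) and gave -0.12 with vanillin against IMQ (adjusted p = 0.373). Its Vanillin arrays, at 9.45 to 9.51, were below all IMQ arrays, at 9.52 to 9.67, but the difference was not called. Col5a1 was not called in IMQ against Mock (-0.14, adjusted p = 0.389) or in Vanillin against IMQ (-0.30, adjusted p = 0.0968). Without Mock 1 it was called lower in both (-0.29, adjusted p = 0.0268, and -0.30, adjusted p = 0.0181), and the change in IMQ against Mock ran from -0.29 to -0.03 over the leave-one-out fits. It was called lower in Vanillin against Mock (-0.44, adjusted p = 0.0360), which did not hold in 7 of the 9 leave-one-out fits, those without Mock 2 or 3, any IMQ array or Vanillin 1 or 2 (adjusted p up to 0.106), or with only both of these groups fitted (0.104).

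**Figure D2:**
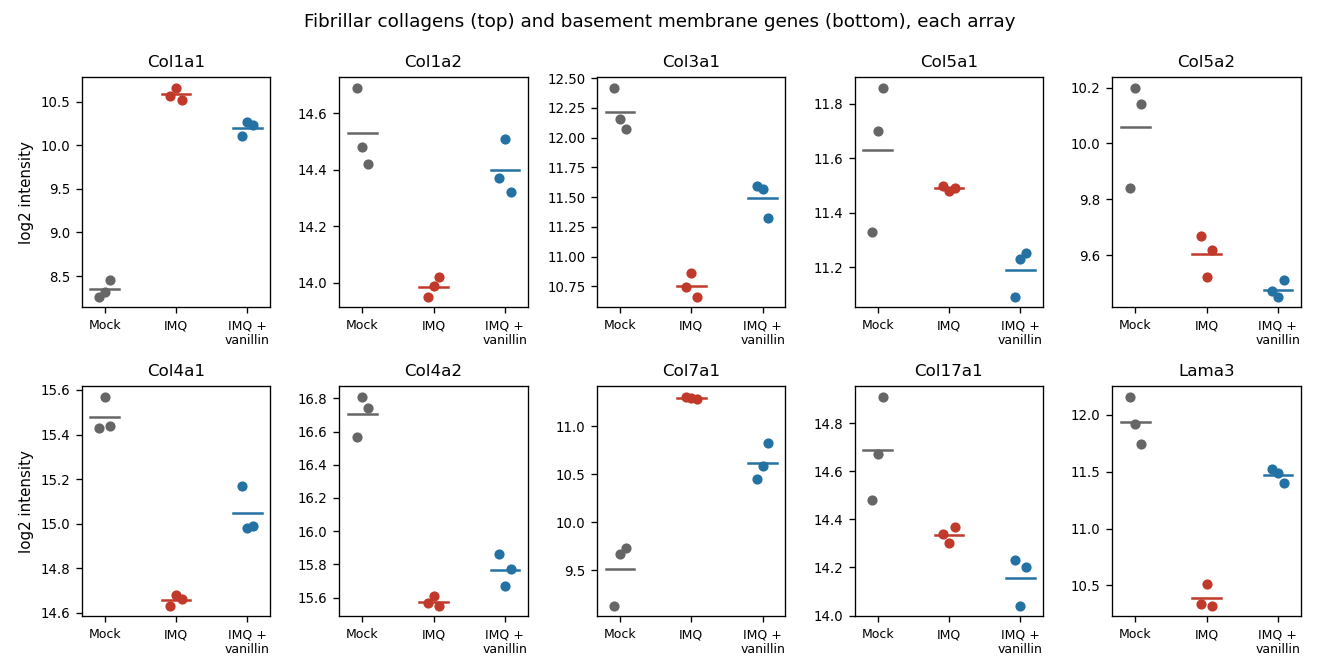
Log2 intensity (vertical axis, a scale of its own for each gene) on each of 3 arrays per group for 5 fibrillar collagen chains in the upper row and 5 basement membrane genes in the lower row; points are arrays and lines are group means. Col1a1 and Col7a1 are lowest in Mock and highest in IMQ, while Col3a1, Col4a1 and Lama3 show the reverse order.

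Promoter sequences were taken from RefSeq (assembly GRCm38.p6) for the 26 genes with an entry, 33 windows from 250 bases before to 50 bases after an annotated start. Shown are the 200 bases before the start of Col1a2 and Col3a1, the fibrillar chains that fell with imiquimod and rose with vanillin, and of Col7a1, which moved the other way. Capitals mark the CCAAT box, the TATAAA box and the Sp1-type box GGGCGG on either strand.
Col1a2, chr6:4505418-4505617, plus strand: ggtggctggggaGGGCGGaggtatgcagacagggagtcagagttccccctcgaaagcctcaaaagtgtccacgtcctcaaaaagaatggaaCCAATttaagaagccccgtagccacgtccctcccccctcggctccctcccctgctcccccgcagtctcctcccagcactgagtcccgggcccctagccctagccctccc
Col3a1, chr1:45311338-45311537, plus strand: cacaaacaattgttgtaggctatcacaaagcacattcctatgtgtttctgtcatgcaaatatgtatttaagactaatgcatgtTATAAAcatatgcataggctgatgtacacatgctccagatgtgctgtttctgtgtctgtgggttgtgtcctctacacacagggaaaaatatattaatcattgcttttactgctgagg
Col7a1, chr9:108953386-108953585, plus strand: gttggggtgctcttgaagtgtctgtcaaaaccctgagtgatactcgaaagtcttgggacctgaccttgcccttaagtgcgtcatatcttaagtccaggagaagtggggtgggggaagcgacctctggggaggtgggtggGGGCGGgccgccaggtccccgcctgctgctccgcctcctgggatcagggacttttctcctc
Over these 200 bases Col1a2 holds a CCAAT and a GGGCGG, Col3a1 a TATAAA and Col7a1 a GGGCGG, so the pair that moved together shares none of the 3 motifs here. Among all 32851 windows of the same table, 37.4% held CCAAT, 13.6% TATAAA and 35.7% GGGCGG, and among the 33 windows of the matrix genes 33.3%, 21.2% and 48.5% did. TGANTCA, the core of AP-1 sites, was in 7.8% of all windows and in 2 windows of these genes, Col6a1 and Tnxb. Some windows of a gene overlap, and a match is a description of letters only. Col1a1, Col5a2, Col12a1, Col14a1, Lama3, Dcn, Lum, Eln, Mfap5, Lox, Loxl1, Fn1 and Thbs1 have no entry in the table.

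The other dermal collagens changed less, with 3 lower and 3 not called of 6 in IMQ against Mock. Of all probes 53.6% were called in this comparison, so 3 called of 6 was near the share of all probes. By direction 29.6% of all probes were called lower. Type VI collagen forms beaded filaments around cells, and its chains Col6a3 (-0.72 ± 0.10, adjusted p = 0.000485) and Col6a1 (-0.59 ± 0.13, adjusted p = 0.00424) fell, while Col6a2 gave -0.23 (adjusted p = 0.0841) and was called lower without IMQ 2 (-0.33, adjusted p = 0.0277). Col6a3 read 14.03, 14.32 and 14.16 in Mock, 13.45, 13.50 and 13.39 in IMQ and 13.85, 13.63 and 13.80 in Vanillin, in 3 separate ranges. Its rise of 0.31 ± 0.10 with vanillin against IMQ (adjusted p = 0.0394) did not hold in 6 of the 9 leave-one-out fits (without Mock 3, any IMQ array or Vanillin 1 or 3), with adjusted p up to 0.127, with cyclic loess normalization (0.0521) and with a replicate block (0.0768). Its call against Mock (-0.41, adjusted p = 0.0180) was lost without Mock 2 (0.0677) or Vanillin 2 (0.0610) and when the third group was left out of the fit (0.0698). Col6a1 gave -0.02 for Vanillin against IMQ (adjusted p = 0.910, 95% interval -0.31 to 0.27) and -0.61 against Mock (adjusted p = 0.00748), so it lay about as far below Mock in both treated groups.

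Col12a1 encodes a collagen that sits on the surface of fibrils. It read 12.46, 12.26 and 12.19 in Mock, 11.88, 11.92 and 11.85 in IMQ and 12.48, 12.65 and 12.35 in Vanillin. IMQ was the lowest group on every array, and Mock and Vanillin overlapped. It fell by 0.42 ± 0.11 with imiquimod (adjusted p = 0.00932) and was 0.61 ± 0.11 higher with vanillin than in IMQ (adjusted p = 0.00351). Col14a1, a related fibril-associated collagen, was not called in any comparison, with changes of -0.14, 0.22 and 0.08. Col8a1, a network-forming collagen of vessels, gave 0.05 in IMQ against Mock (adjusted p = 0.764) and fell by 0.41 ± 0.14 with vanillin against IMQ (adjusted p = 0.0418). That call failed in 7 of the 9 leave-one-out fits, with adjusted p up to 0.124 (without Mock 2 or any IMQ or Vanillin array), and with a replicate block (0.0690). Against Mock the change of -0.35 (adjusted p = 0.0935) was called without Mock 1 (-0.47, adjusted p = 0.0232).

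All 8 basement membrane and anchoring genes were called in IMQ against Mock, 6 lower and 2 higher. Col7a1 and Lamb3 were the ones that rose. Over all probes 53.6% were called in this comparison, 29.6% lower and 24.0% higher. Col7a1, the chain of the anchoring fibrils, read 9.13, 9.67 and 9.73 in Mock, 11.31, 11.30 and 11.29 in IMQ and 10.45, 10.59 and 10.83 in Vanillin, 3 ranges without overlap. It was 3.45-fold higher in IMQ (1.79 ± 0.16, adjusted p = 5.03e-05), 0.68 ± 0.16 lower in Vanillin than in IMQ (adjusted p = 0.0123) and 2.16-fold above Mock in Vanillin (adjusted p = 0.00131). Lama3 and Lamb3 encode 2 chains of the laminin that holds basal keratinocytes to the basement membrane, and they moved apart. Lama3 read 12.16, 11.92 and 11.74 in Mock, 10.34, 10.51 and 10.32 in IMQ and 11.52, 11.49 and 11.40 in Vanillin. It was lowest on the IMQ arrays and between the others on the Vanillin arrays, at -1.55 ± 0.12 in IMQ against Mock (2.92-fold lower, adjusted p = 1.97e-05) and 1.08 ± 0.12 in Vanillin against IMQ (2.11-fold higher, adjusted p = 0.000861). The call for Vanillin against Mock (-0.47, adjusted p = 0.0177) was lost when the third group was left out of the fit (0.0572). Lamb3 rose by 0.47 ± 0.13 with imiquimod (adjusted p = 0.0134) and gave -0.24 with vanillin against IMQ (adjusted p = 0.164), which was called without Mock 1 (0.0319) or with those groups fitted alone (0.0445). The within-array difference of Lama3 and Lamb3 changed by -2.02 log2 units in IMQ against Mock, and Vanillin lay 1.32 above IMQ.

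The type IV collagen chains Col4a1 and Col4a2 join in one trimer, and their genes lie head to head on chromosome 8. In the RefSeq table (GRCm38.p6) their annotated starts, on opposite strands, are 21 bases apart. Col4a1 read 15.43, 15.57 and 15.44 in Mock, 14.63, 14.68 and 14.66 in IMQ and 15.17, 14.98 and 14.99 in Vanillin. Col4a2 read 16.57, 16.81 and 16.74 in Mock, 15.57, 15.61 and 15.55 in IMQ and 15.86, 15.67 and 15.77 in Vanillin. For both genes all Mock arrays were highest and all IMQ arrays lowest. Col4a1 fell by 0.82 ± 0.09 (adjusted p = 9.97e-05) and Col4a2 by 1.13 ± 0.09 (adjusted p = 2.95e-05) with imiquimod. With vanillin against IMQ, Col4a1 rose by 0.39 ± 0.09 (adjusted p = 0.00887), while Col4a2 gave 0.19 (adjusted p = 0.135). The within-array difference of the 2 chains was 0.30 higher in IMQ and 0.50 higher in Vanillin than in Mock, beside 2.78 and 1.99 for the type I chains. The same differences were 0.31 and 0.14 for Col5a1 and Col5a2, and -0.36 and -0.57 for Col6a1 and Col6a2.

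Col18a1, whose C-terminal fragment is endostatin, fell by 1.04 ± 0.09 with imiquimod (adjusted p = 4.21e-05) and stayed 0.89 below Mock with vanillin (adjusted p = 0.000184), with 0.15 between the treated groups (adjusted p = 0.214). Col15a1, a related collagen of vessel and muscle basement membranes, fell by 0.67 ± 0.12 (adjusted p = 0.00141) and gave 0.29 with vanillin against IMQ (adjusted p = 0.0731), called without Mock 1 (0.0326) or with those groups fitted alone (0.0367). Its call for Vanillin against Mock (-0.38, adjusted p = 0.0434) did not hold in 7 of the 9 leave-one-out fits, with adjusted p up to 0.124 (kept without Mock 3 or Vanillin 1), with cyclic loess normalization (0.0502) and when the third group was left out of the fit (0.122). Col17a1, the transmembrane collagen of hemidesmosomes, fell by 0.35 ± 0.12 (adjusted p = 0.0324), which did not hold in 5 of those 9 fits, with adjusted p up to 0.0926 (without Mock 2 or 3 or any IMQ array). It was 0.53 below Mock with vanillin (adjusted p = 0.0101), with the Vanillin arrays at 14.04 to 14.23 below all IMQ arrays at 14.30 to 14.37. The keratinocyte genes of this class did not share a direction, with Lama3 and Col17a1 lower and Lamb3 higher after imiquimod.

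The 4 small leucine-rich proteoglycans were all called in IMQ against Mock, with Fmod, Bgn and Dcn lower and Lum higher. Among all probes 53.6% were called in this comparison, 29.6% lower and 24.0% higher. Lum, which encodes lumican, read 13.72, 13.65 and 13.64 in Mock, 14.01, 14.03 and 14.03 in IMQ and 14.14, 14.10 and 14.12 in Vanillin. Each group had a range of its own and the Vanillin arrays were highest, with a rise of 0.35 ± 0.07 in IMQ (adjusted p = 0.00324) and of 0.45 ± 0.07 in Vanillin against Mock (adjusted p = 0.00206). Vanillin against IMQ was not called (0.09, adjusted p = 0.324). Dcn, which encodes decorin, read 17.50, 17.58 and 17.72 in Mock, 17.04, 17.09 and 17.06 in IMQ and 17.02, 17.06 and 17.13 in Vanillin, so the treated groups overlapped and both lay below Mock. Dcn fell by 0.54 ± 0.09 with imiquimod (adjusted p = 0.000872) and gave 0.01 with vanillin against IMQ (adjusted p = 0.931, 95% interval -0.18 to 0.21).

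Bgn, which encodes biglycan, showed the same order, with 15.59, 15.86 and 15.94 in Mock, 15.18, 15.09 and 15.16 in IMQ and 15.19, 15.14 and 15.23 in Vanillin. It fell by 0.66 ± 0.10 (adjusted p = 0.000767), and Vanillin against IMQ gave 0.05 (adjusted p = 0.738, 95% interval -0.19 to 0.28). Fmod, which encodes fibromodulin, read 9.77, 9.87 and 9.88 in Mock, 8.99, 9.01 and 8.82 in IMQ and 9.27, 9.27 and 9.38 in Vanillin. It was the proteoglycan of this class that was called with vanillin against IMQ, at 0.36 ± 0.09 (adjusted p = 0.0119), a call lost without IMQ 3 (0.0571). In IMQ against Mock it was lower by 0.90 ± 0.09 (adjusted p = 6.72e-05). Against Mock the Vanillin group was lower for Dcn (-0.53), Fmod (-0.53) and Bgn (-0.61) and higher for Lum.

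Of the 7 genes of elastic fibres and their cross-linking, 2 fell and 5 were not called in IMQ against Mock. The share called was 28.6%, all lower, beside 53.6% called and 29.6% called lower over all probes. Mfap5, a microfibril glycoprotein, read 11.74, 11.41 and 11.39 in Mock, 10.31, 10.41 and 10.47 in IMQ and 10.78, 10.72 and 10.72 in Vanillin. It fell by 1.12 ± 0.11 (adjusted p = 6.78e-05), and its rise of 0.35 ± 0.11 with vanillin against IMQ (adjusted p = 0.0337) did not hold in 5 of the 9 leave-one-out fits, with adjusted p up to 0.121 (without any IMQ array or Vanillin 1 or 2), with cyclic loess normalization (0.0624) and with a replicate block (0.0596). Lox, the lysyl oxidase that cross-links collagen and elastin, fell by 0.74 ± 0.14 (adjusted p = 0.00231) and gave 0.11 with vanillin against IMQ (adjusted p = 0.545). Loxl1, a relative that acts on elastin, gave 0.01 in IMQ against Mock (adjusted p = 0.951).

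Fbn1, the fibrillin of microfibrils, was called lower with vanillin, and imiquimod alone was not called. It read 13.88, 14.07 and 14.22 in Mock, 14.28, 14.19 and 14.26 in IMQ and 13.54, 13.61 and 13.65 in Vanillin, where every array was below both other groups. IMQ against Mock gave 0.18 (adjusted p = 0.156), Vanillin against IMQ -0.64 ± 0.10 (adjusted p = 0.00256) and Vanillin against Mock -0.46 (adjusted p = 0.0101). Fbln5, a fibulin needed for elastic fibre assembly, was higher in Vanillin than in IMQ (0.34 ± 0.08, adjusted p = 0.0126) and than in Mock (0.38, adjusted p = 0.00865), and gave 0.05 in IMQ against Mock (adjusted p = 0.658). The call against IMQ was lost without IMQ 3 (0.0578) and the call against Mock when the third group was left out of the fit (0.0504). With the mean of its probes Fbln5 gave 0.17 in Vanillin against Mock (adjusted p = 0.199) and was not called. Eln, which encodes elastin, was not called in any comparison (-0.07, 0.35 and 0.28). In Vanillin against IMQ it was called higher without Mock 1 (0.0224) or Mock 3 (0.0448) and with those groups fitted alone (0.0234), and in Vanillin against Mock without Mock 1 (0.44, adjusted p = 0.0217). Fbln1 was not called either, on a dim probe at percentile 18.9 of mean intensity, the only representative probe among the 39 genes in the lowest 25% of probes.

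Of the 9 adhesive and matricellular genes, 5 fell and 4 were not called in IMQ against Mock, and 6 rose and 1 fell in Vanillin against IMQ. In IMQ against Mock 55.6% were called, all lower, beside 53.6% called and 29.6% called lower over all probes. In Vanillin against IMQ 77.8% were called, beside 41.2% of all probes. Fn1, which encodes fibronectin, read 12.33, 12.03 and 11.99 in Mock, 10.63, 10.64 and 10.50 in IMQ and 10.60, 10.82 and 10.46 in Vanillin. The treated groups overlapped and lay far below Mock, at -1.53 ± 0.13 in IMQ (2.88-fold lower, adjusted p = 3.02e-05) and -1.49 ± 0.13 in Vanillin (2.81-fold lower, adjusted p = 6.28e-05). Vanillin against IMQ gave 0.04 (adjusted p = 0.827, 95% interval -0.25 to 0.33). Tnc, which encodes tenascin-C, a protein of remodelling tissue, read 13.37, 13.25 and 13.24 in Mock, 11.91, 11.99 and 11.83 in IMQ and 12.50, 12.60 and 12.41 in Vanillin. Unlike for Fn1, the Vanillin arrays lay in a range of their own between the other groups. Tnc fell by 1.37 ± 0.09 (adjusted p = 1.04e-05) and was 0.59 ± 0.09 higher with vanillin than in IMQ (adjusted p = 0.00224).

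Sparc, a collagen-binding matricellular protein, had the same order, with a fall of 1.09 ± 0.09 (adjusted p = 2.57e-05) and a rise of 0.40 ± 0.09 with vanillin against IMQ (adjusted p = 0.00865). Tnxb, which encodes tenascin-X, fell by 0.64 ± 0.09 (adjusted p = 0.000484) and rose by 0.46 ± 0.09 (adjusted p = 0.00573), and Vanillin against Mock was not called (-0.18, adjusted p = 0.185). Dpt, which encodes dermatopontin, fell by 0.89 ± 0.12 (adjusted p = 0.000326). Its rise of 0.37 ± 0.12 with vanillin against IMQ (adjusted p = 0.0331) did not hold in 5 of the 9 leave-one-out fits, with adjusted p up to 0.109 (without any IMQ array or Vanillin 1 or 2). In each of these genes the IMQ arrays were below all others.

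Thbs1 and the brighter of the Vcan probes stood above both other groups with vanillin. Thbs1 encodes thrombospondin-1, an activator of TGF-beta, and read 10.90, 10.88 and 10.86 in Mock, 10.69, 10.82 and 10.72 in IMQ and 11.33, 11.30 and 11.13 in Vanillin. It was 0.51 ± 0.09 higher in Vanillin than in IMQ (adjusted p = 0.00318) and 0.37 ± 0.09 higher than in Mock (adjusted p = 0.0122), a call lost when the third group was left out of the fit (0.0585). Vcan encodes the large proteoglycan versican, and its brighter probe read 11.20, 10.91 and 10.98 in Mock, 11.02, 11.15 and 11.03 in IMQ and 11.59, 11.78 and 11.47 in Vanillin. That probe was 0.55 ± 0.11 higher in Vanillin than in IMQ (adjusted p = 0.00651) and 0.59 higher than in Mock (adjusted p = 0.00517). The other Vcan probe gave -0.11 in Vanillin against Mock, and the mean of both gave 0.24 (adjusted p = 0.0601), which was not called. Postn, which encodes periostin, was not called in any comparison (-0.03, -0.26 and -0.29), with Mock arrays spread from 15.15 to 15.95, though Vanillin against IMQ was called when Mock was left out of the fit (0.0258).

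Thbs2, the thrombospondin gene of fibroblasts, and Vcan had 2 probes that disagreed. The brighter Thbs2 probe gave -0.40 in IMQ against Mock (adjusted p = 0.101), called lower without Mock 1 (-0.63, adjusted p = 0.00149), and -0.57 ± 0.18 in Vanillin against IMQ (adjusted p = 0.0367), the latter lost without any IMQ or Vanillin array (adjusted p up to 0.104) and with a replicate block (0.0590). The other Thbs2 probe read 7.41, 8.17 and 8.54 in Mock, 10.20, 10.18 and 10.16 in IMQ and 8.57, 8.70 and 8.51 in Vanillin. On the log2 scale it was 2.14 ± 0.24 higher in IMQ than in Mock (adjusted p = 0.000132). It was 1.59 ± 0.24 lower in Vanillin than in IMQ (adjusted p = 0.00221). The dimmer Vcan probe rose by 0.63 in IMQ against Mock (adjusted p = 0.00232) and fell by 0.75 with vanillin against IMQ (adjusted p = 0.00282), where the brighter one rose. The dimmer Fbln5 probe, at percentile 15.6, fell by 1.05 with imiquimod (adjusted p = 0.000130), where the brighter one was not called. Which transcript each probe detects is not given in the sources used here.

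For Lama3, Dcn and Lox the probes went the same way in IMQ against Mock. The dimmer Dcn probe fell by 1.49 ± 0.08 (adjusted p = 3.26e-06), beside 0.54 for the brighter probe, whose mean intensity was at percentile 99.8. The Lama3 probes gave -1.55 and -1.34, and with vanillin against IMQ 1.08 and 0.96, but the dimmer one was not called in Vanillin against Mock (-0.38, adjusted p = 0.0658). The Lox probes gave -0.74 and -0.71, with the dimmer one not called in Vanillin against Mock (-0.43, adjusted p = 0.106). Neither Loxl1 probe was called in any comparison. With the mean of a gene's probes, Thbs2 was called higher in IMQ (0.87, adjusted p = 0.00742) and Fbln5 lower (-0.50, adjusted p = 0.00161), and Vcan was called higher in IMQ (0.34, adjusted p = 0.00723) and not called in Vanillin against IMQ (-0.10, adjusted p = 0.349). In Vanillin against Mock it ended the call of the brighter Thbs2 probe (-0.96, adjusted p = 0.00492), giving -0.20 (adjusted p = 0.520).

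**Figure D3:**
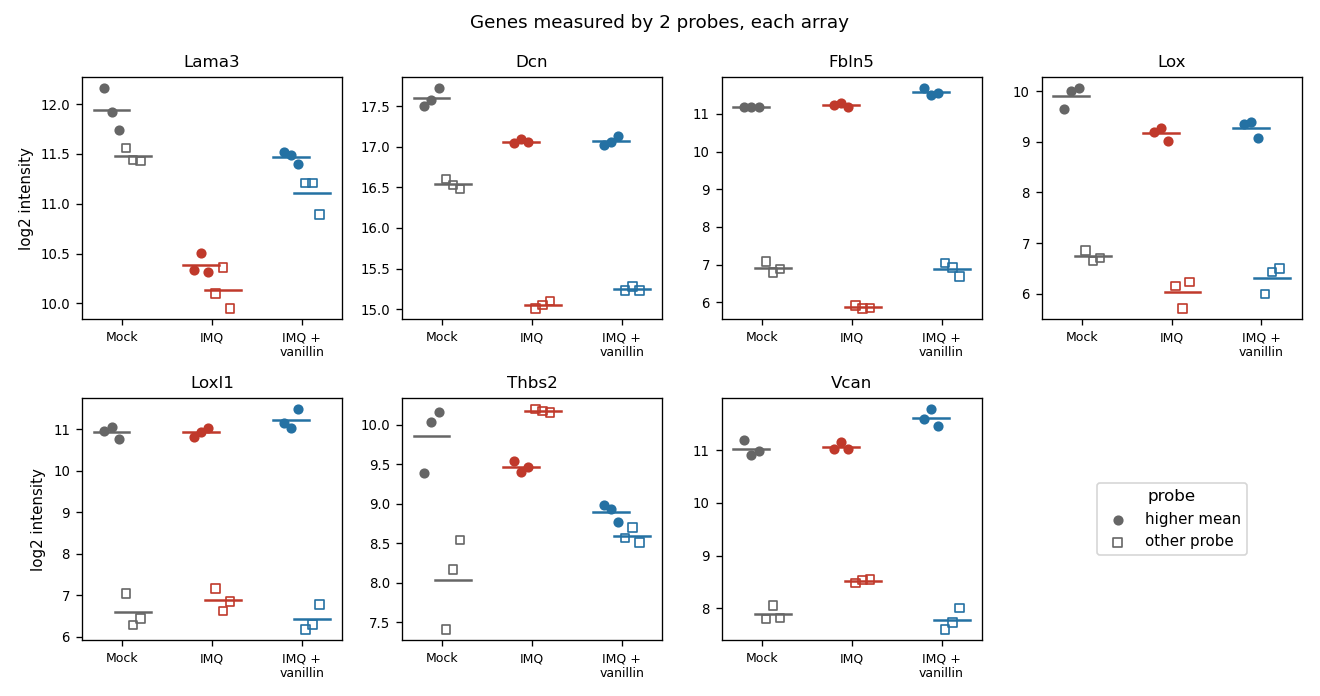
Log2 intensity (vertical axis, a scale of its own for each gene) on each array for the 7 genes with 2 probes; filled circles are the probe with the higher mean over all arrays, open squares the other probe, and lines are group means. The open squares of Thbs2 rise to 10.16 to 10.20 in IMQ while its filled circles do not, and the probes of Lama3 keep the same order of groups.

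Compared by class on each gene's brightest probe, basement membrane genes had the lowest median in IMQ against Mock and elastic fibre genes the highest. With the mean of a gene's probes the small proteoglycans were lowest instead, at -0.78 beside -0.75 for basement membrane genes. The median change was -0.75 for the 8 basement membrane genes, -0.64 for the 9 adhesive and matricellular genes and -0.60 for the 4 small proteoglycans. It was -0.46 for the 5 fibrillar collagens, -0.33 for the 6 other dermal collagens and -0.07 for the 7 elastic fibre genes. In Vanillin against IMQ the medians were 0.40 for adhesive genes, 0.29 for elastic fibre genes, 0.21 for other dermal collagens and 0.17 for basement membrane genes. They were 0.07 for small proteoglycans and -0.12 for fibrillar collagens. In Vanillin against Mock the fibrillar median was -0.44, the basement membrane median -0.45 and the proteoglycan median -0.53. Every array of the IMQ and Vanillin groups had a class median below all Mock arrays for the fibrillar, other dermal, basement membrane, proteoglycan and adhesive classes. The elastic fibre class overlapped between groups. The classes hold 4 to 9 genes each and differences between them were not tested.

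**Figure D4:**
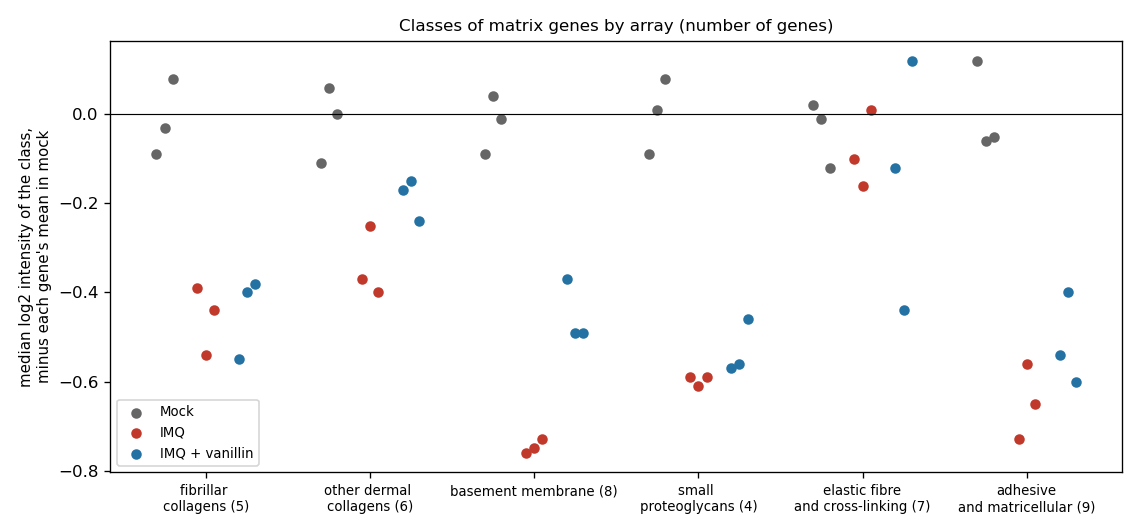
Median over the genes of a class of log2 intensity minus each gene's mean in Mock (vertical axis), for each array (points, 3 per group) and class (horizontal axis, number of genes in brackets). Basement membrane genes lie between -0.76 and -0.73 in IMQ and between -0.49 and -0.37 in Vanillin, while small proteoglycans lie between -0.61 and -0.46 in both treated groups.

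Genes that act on or around these proteins were examined in lists of related function, counted on each gene's brightest probe. Of 27 genes of these and the marker lists with further probes, 4 had a probe called in the opposite direction in IMQ against Mock (Loxl4, Col6a6, Nid1 and Trp63) and 11 more had one with another call, so the counts depend on the probe taken. In Vanillin against IMQ these numbers were 1 (Loxl4) and 13. Of 23 measured genes of collagen processing and cross-linking, 14 fell, 2 rose and 7 were not called in IMQ against Mock, and 13 rose, 2 fell and 8 were not called with vanillin against IMQ. The list medians were -0.66 and 0.31, with 69.6% and 65.2% called beside 53.6% and 41.2% of all probes. The 2 that rose with imiquimod were 4 without Vanillin 3, and the 2 that fell with vanillin were 1 without IMQ 3, Vanillin 1 or Vanillin 2. Pcolce, an enhancer of procollagen C-proteinase, fell by 1.46 ± 0.18, the lysyl oxidase Loxl2 by 1.32 ± 0.19 (other probe -0.65) and the procollagen N-proteinase Adamts2 by 1.20 ± 0.10. A dimmer probe of Adamts2 fell too (-0.83) but was not called with vanillin against IMQ, where the brighter one was. P4ha1, a subunit of the prolyl hydroxylase of collagen, rose by 0.93 ± 0.16 with vanillin against IMQ. The brightest probe of Loxl4 gave 1.67 ± 0.34 in IMQ against Mock and -1.31 ± 0.34 in Vanillin against IMQ, but another probe gave -0.71 and 0.72 and a further one 0.34 and -0.13. Its call against IMQ failed in 3 of the 9 leave-one-out fits (without IMQ 3 or Vanillin 1 or 2) and with the mean of its probes (-0.24, adjusted p = 0.219).

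Of 27 other collagen chains, 7 fell, 6 rose and 14 were not called in IMQ against Mock, 48.1% called beside 53.6% of all probes. Col8a2, the partner of Col8a1, fell by 1.74 ± 0.16 and rose by 1.01 ± 0.16 with vanillin against IMQ, and the minor chain Col28a1 fell by 1.31 ± 0.09 on a dim probe (percentile 14.0). Col13a1, a transmembrane collagen, fell by 0.76 ± 0.13, Col27a1 rose by 0.89 ± 0.22 on a dim probe (percentile 7.73), and Col6a4 fell by 1.08 ± 0.30 with vanillin against IMQ. The call for Col6a4 failed in 3 of the 9 leave-one-out fits (without IMQ 1 or 3 or Vanillin 1). With vanillin against IMQ, 5 of the 27 rose, 3 fell and 19 were not called, 29.6% called beside 41.2% of all probes. The 6 that rose with imiquimod were 3 without IMQ 1 or IMQ 3, and the 3 that fell with vanillin were 1 without either of these arrays and 8 without Vanillin 3. Col6a6, counted as higher at 0.60, had another probe called lower (-1.03).

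Of 16 other basement membrane genes, 9 fell, 3 rose and 4 were not called in IMQ against Mock, with a median of -0.50. The share called was 75.0%, beside 53.6% of all probes. Nid1, counted as lower at -0.72, had another probe called higher (0.44). Lama2, the laminin chain of muscle and nerve, fell by 2.28 ± 0.19 and rose by 1.07 ± 0.19 with vanillin against IMQ. Nid2, a nidogen that joins laminin to type IV collagen, fell by 0.83 ± 0.09 and Frem1 by 0.78 ± 0.10 (a dim probe, percentile 17.9). Lama5, an epidermal laminin chain, rose by 0.80 ± 0.16 and fell by 0.79 ± 0.16 with vanillin against IMQ. Of 9 other leucine-rich proteoglycans, 3 fell and 6 were not called in IMQ against Mock. The share called was 33.3%, all lower, beside 53.6% called and 29.6% called lower over all probes. The 3 were Ogn (-2.27 ± 0.13), Omd (-1.77 ± 0.16) and Prelp (-1.49 ± 0.11), and Omd and Prelp rose by 1.07 ± 0.16 and 0.97 ± 0.11 with vanillin against IMQ, while Ogn gave -2.22 in Vanillin against Mock.

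Of 12 other elastic fibre genes, 5 fell and 3 rose with imiquimod, and 5 rose and 7 were not called with vanillin against IMQ. The shares called were 66.7% and 41.7%, beside 53.6% and 41.2% of all probes. The 5 that rose with vanillin were 2 without IMQ 1 or IMQ 3 and 3 without Vanillin 1 or Vanillin 2. Ltbp3 and Ltbp4, which bind latent TGF-beta, went apart, with -1.17 ± 0.08 for Ltbp3 and 1.72 ± 0.33 for Ltbp4. Efemp1 and Mfap2 fell by 0.88 ± 0.14 and 0.67 ± 0.12. With vanillin against IMQ Ltbp3 rose by 0.47 ± 0.08 and Efemp1 by 0.45 ± 0.14, the latter not called in 4 of the 9 leave-one-out fits (without IMQ 1 or 3 or Vanillin 1 or 2). Of 17 genes of TGF-beta signalling and its targets, 7 fell, 2 rose and 8 were not called in IMQ against Mock, 52.9% called beside 53.6% of all probes. By direction 41.2% were called lower and 11.8% higher, beside 29.6% and 24.0% of all probes. The 2 that rose were 1 without IMQ 1 or IMQ 3. The receptor Tgfbr2 fell by 0.92 ± 0.10, the ligand Tgfb3 by 0.91 ± 0.09, and the contractile genes Acta2 and Tagln by 0.68 ± 0.14 (other probe -1.57) and 0.65 ± 0.10. With vanillin against IMQ 4 rose and 1 fell (2 without Vanillin 3), 29.4% called beside 41.2% of all probes, among them Tagln at 0.61 ± 0.10 and the receptor Tgfbr3 at -0.57 ± 0.12.

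Of 18 collagen receptors and integrins, 6 fell, 5 rose and 7 were not called in IMQ against Mock, 33.3% lower and 27.8% higher beside 29.6% and 24.0% of all probes. Itgb5 and Itgb1, counted as not called at -0.12 each, had other probes called lower (-1.18 and -1.45 for Itgb5, -0.96 for Itgb1). Ddr2, not called at -0.14, had another probe called higher (0.26). The hyaluronan receptor Cd44 rose by 1.57 ± 0.12 and the collagen-binding integrin chain Itga2 by 1.12 ± 0.24, the latter on a dim probe (percentile 4.80). The collagen-binding chain Itga1 fell by 1.45 ± 0.16 (other probe -0.55) and Itgb6 by 1.06 ± 0.12. With vanillin against IMQ 8 rose, 2 fell and 8 were not called, 55.6% called beside 41.2% of all probes. Itgb6 gave 0.95 ± 0.12 and Itgb8 1.27 ± 0.18, the latter on a dim probe (percentile 4.71).

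**Figure D5:**
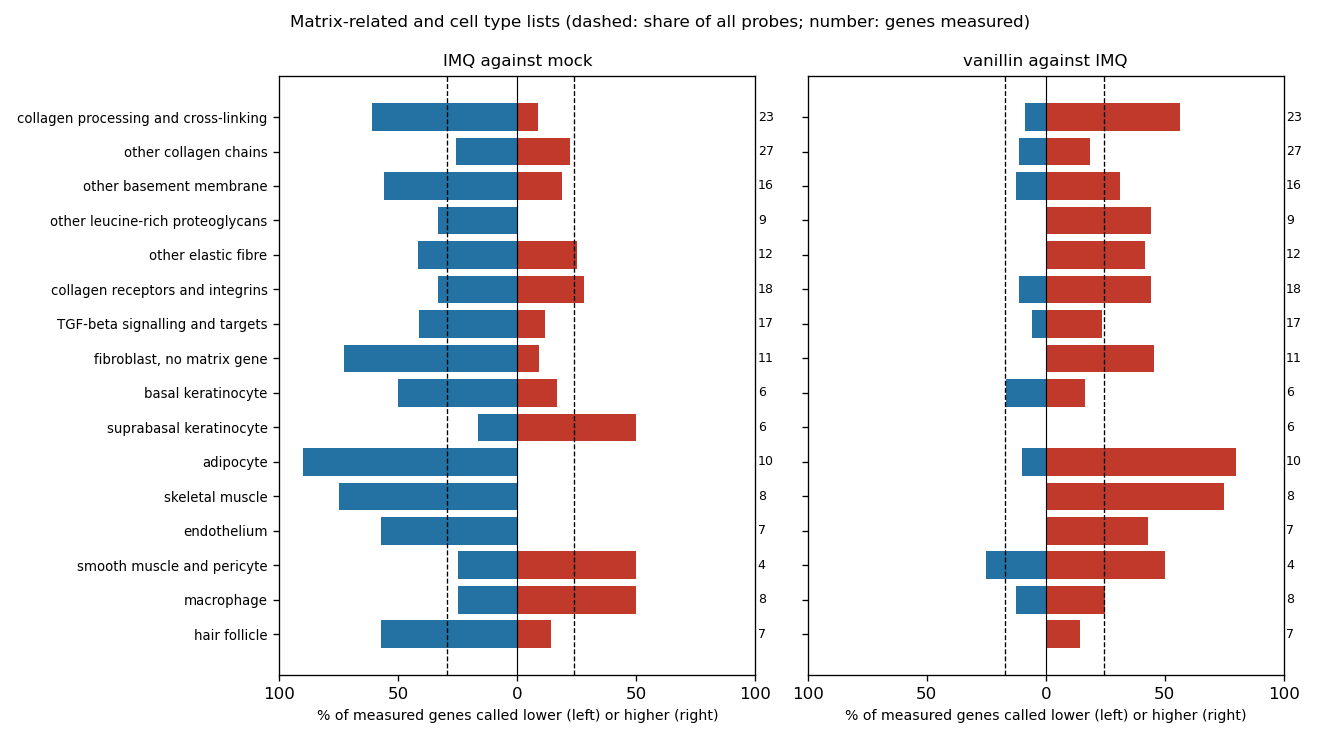
Share of measured genes called lower (blue, to the left) and higher (red, to the right) in IMQ against Mock and in Vanillin against IMQ for 7 lists of matrix-related genes and 9 lists of cell type markers (rows); the number at the right is the count of genes measured, and dashed lines are the shares over all probes. Adipocyte markers have the longest bar to the left with imiquimod, at 90.0%, and to the right with vanillin, at 80.0%.

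Marker lists of cell types were examined beside the matrix genes. Over all probes, 53.6% were called in IMQ against Mock (29.6% lower, 24.0% higher). In Vanillin against IMQ 41.2% were called (24.3% higher, 17.0% lower). Of the fibroblast list 81.8% and 45.5% were called in these comparisons. Among 11 measured fibroblast markers that are not matrix genes, 8 fell, 1 rose and 2 were not called in IMQ against Mock, with a median of -0.43. Pdgfrb fell by 0.99 ± 0.15, Cd34 by 0.79 ± 0.07, Pi16 by 0.74 ± 0.11 and Prrx1 by 0.66 ± 0.08 (other probe -0.87). With vanillin against IMQ 5 rose and 6 were not called, with Pdgfrb at 0.88 ± 0.15 and Prrx1 at 0.56 ± 0.08. Their summed intensity was 172000 to 188000 in Mock, 133000 to 138000 in IMQ and 152000 to 155000 in Vanillin, without overlap, and no probe of any marker list was at or below 0. In whole tissue, fewer fibroblasts and less RNA of a gene per fibroblast cannot be told apart.

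Adipocyte markers gave 9 lower of 10 with imiquimod, and 8 higher and 1 lower with vanillin against IMQ. The 9 lower and the 8 higher were 90.0% and 80.0%, beside 29.6% called lower and 24.3% called higher over all probes. The 1 lower was not called without IMQ 1 or 3 or Vanillin 1 or 2. Summed intensities of the adipocyte markers were 374000 to 396000 in Mock, 252000 to 255000 in IMQ and 279000 to 292000 in Vanillin. Skeletal muscle markers gave 6 lower of 8 with imiquimod and 6 higher with vanillin against IMQ, 75.0% in each, beside the same shares. Their sums were 306000 to 351000, 262000 to 265000 and 314000 to 336000. Endothelial markers gave 4 lower of 7 with imiquimod and 3 higher with vanillin against IMQ. The shares called were 57.1%, all lower, and 42.9%, all higher. Over all probes 29.6% were called lower and 24.3% higher in these comparisons, and 53.6% and 41.2% in either direction. The endothelial sums were 19500 to 21300, 13900 to 14700 and 16900 to 17100, and Cdh5 fell by 1.39 ± 0.09 with imiquimod. Pecam1, counted as not called at -0.28, had other probes called lower with imiquimod (-1.73 and -1.21). The 4 lower were 2 without Mock 2 or IMQ 1, where Kdr and Emcn lost their calls. Of 6 suprabasal keratinocyte markers 3 rose and 1 fell in IMQ against Mock, with sums of 629000 to 692000 in Mock, 965000 to 1020000 in IMQ and 955000 to 995000 in Vanillin, with Krt1 at 3.43 ± 0.12 and Dsc1 at -0.35 ± 0.09 (adjusted p = 0.00836). Of the suprabasal and of the basal list, 66.7% each were called in IMQ against Mock, beside 53.6% of all probes. Basal keratinocyte markers, beside which Lama3, Lamb3 and Col17a1 are read, gave 3 lower, 1 higher and 2 not called of 6. Their sums overlapped between the groups (571000 to 617000, 563000 to 647000 and 568000 to 674000). The 3 lower were 1 without Mock 2 or IMQ 1, and the 1 higher, Trp63 at 0.42, was not called without IMQ 1 (0.0542), had another probe called lower (-1.34) and was called lower with the mean of its probes (-0.38). The part of these shifts in the changes of the matrix genes was not tested.

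Macrophage markers gave 4 higher and 2 lower of 8 with imiquimod. Their sums were 58300 to 65000 in Mock, 73800 to 76200 in IMQ and 66400 to 71500 in Vanillin. Adgre1 rose by 2.03 ± 0.09, Csf1r by 0.62 ± 0.12 and C1qa by 0.39 ± 0.09, while Cd68 fell by 0.60 ± 0.11. The 2 lower were 1 in 6 of the 9 leave-one-out fits, those without Mock 1 or 2, any IMQ array or Vanillin 1. With vanillin against IMQ 2 rose and 1 fell, 37.5% called beside 41.2% of all probes. Cd14 gave 0.94 ± 0.12 and Csf1r -0.49 ± 0.12, the latter not called without IMQ 1 (adjusted p = 0.0531). The 2 that rose were 1 without Mock 2, any IMQ array or Vanillin 1 or 2. Of 4 measured smooth muscle and pericyte markers 2 rose (1 without IMQ 2) and 1 fell, and their sums overlapped between Mock and IMQ (24100 to 26100 and 23500 to 25700) but were higher in Vanillin (28700 to 31100). Hair follicle markers gave 4 lower and 1 higher (2 without Mock 2) of 7, with sums of 550000 to 616000, 537000 to 568000 and 497000 to 580000. In IMQ against Mock 75.0% of the macrophage list, 75.0% of the smooth muscle and pericyte list and 71.4% of the hair follicle list were called. Over all probes 53.6% were called. Itgb4 stands both among the integrins and among the basal keratinocyte markers.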

How the data were processed

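The authors deposited linear probe intensities for 26423 probes on 9 one-colour Cy5 arrays. The submitters' processing notes name limma without a version, while scanner, background correction and filter are not stated in the labels. Sorted deposited intensities differed between arrays by at most 3.42% above 100, so they had been equalised. Intensities under 1 were set to 1 and log2 was taken, with no further normalization or filter. Group means were fitted to all 9 arrays probe by probe with lmFit and eBayes (limma 3.58.1, R 4.3.3), and each comparison's p-values were adjusted over all probes by Benjamini-Hochberg. The fit was tested on simulated data. Of 20377 probes with a symbol, 2126 had an older one that was updated through a RefSeq table of GRCm38.p6, used for names. A gene was represented by its probe with the highest mean, and other probes are given for the 39 genes where they disagree and, in the other lists, for named genes and genes with a probe called the opposite way. They are also given for Pecam1, Itgb1, Itgb5 and Ddr2, not called on the brightest probe in IMQ against Mock. All 39 genes are named, and of each other list up to 4 called genes with the largest change in IMQ against Mock and up to 2 in Vanillin against IMQ. The genes, lists and tests were chosen with earlier results of these data known. Intervals are 95% intervals of the fit. The number of arrays limits the precision. Alternatives changed the normalization, offset, filter, spread prior, array weights, arrays in the fit, replicate block, probes of a gene and threshold, and left out each array in turn.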

Additional observations from a re-analysis of the deposited data

How the results depend on the processing

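Of the 39 genes, 30 kept their call in IMQ against Mock, 21 in Vanillin against IMQ and 28 in Vanillin against Mock under all 19 alternatives run on single genes. Array weights added calls for 6, 9 and 3 genes in these comparisons, and other settings for 4, 5 and 2. Quantile normalization, cyclic loess and median centring turned the sign of no called gene among the 39. Taking the mean of a gene's probes turned Thbs2 (0.87) and Fbln5 (-0.50) in IMQ against Mock, Vcan (-0.10) in Vanillin against IMQ and, among markers, Trp63 (-0.38) in IMQ against Mock, since their probes disagree. It also gave a median of -0.78 for the small proteoglycans in IMQ against Mock. In Vanillin against IMQ, genes called lower numbered 5, but 8 with only both groups in the fit, 3 with a replicate block and 3 to 7 with 1 array left out. Over all probes 6576 to 12805 were called with 1 array left out, the lowest counts being 6576 without IMQ 3 and 6923 without IMQ 1. With adjusted p under 0.01, Vanillin against IMQ called 9 genes higher, 1 lower and 5457 probes, and Vanillin against Mock 14 genes lower and 4231 probes. With 1 array left out, medians in IMQ against Mock ran from -0.81 to -0.71 for basement membrane genes and from -0.67 to -0.53 for small proteoglycans, and in Vanillin against Mock from -0.59 to -0.33 for fibrillar collagens. Deviations of arrays with the same replicate number correlated at -0.265 to 0.222. With 3 arrays per group these values cannot decide whether the numbers pair the arrays. The replicate block gave 22 lower and 4 higher in IMQ against Mock, as without it. In Vanillin against IMQ it gave 13 higher and 3 lower, in place of 15 and 5. Alternatives for the other lists were added after the data were seen. The cause of these shifts was not tested.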
